A study of Mus musculus with 4 samples.

Results

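The genes for SR splicing factors and for heterogeneous nuclear ribonucleoproteins (hnRNPs) were followed in ribosome profiling of mouse myoblasts. They were chosen by name, as the protein-coding genes whose symbol is Srsf followed by digits or begins with Hnrnp. This gave 31 of the 55573 genes listed, of which 11 were SR genes and 20 hnRNP genes. The rule uses no measured value, although it was set with earlier results of these data known. Ribosome-protected fragments had been sequenced from primary myoblasts, the muscle precursor cells grown from digested hind limb muscle of 3-week-old mice, after 2 days of proliferation in culture with FGF. There were 2 wild-type (WT) libraries and 2 libraries labelled eIF5A-KO. By the study's account the knockout mice were Pax7 CreERT2/+;eIF5A f/f induced with tamoxifen, and the WT mice were littermates. WT controls are given as Pax7 CreERT2/+ in one place of the study and as Pax7 +/+;eIF5A f/f in another, so whether these WT cells carried the Cre cannot be told. All cultures received cycloheximide, which holds ribosomes on the mRNA. Cre acts only in cells that have expressed Pax7, so other cells of a muscle digest would keep Eif5a. The study speaks of duplicate experiments, without the number of mice behind a library or whether the duplicates were separate cultures. The p-values therefore measure only the spread between these libraries, which may be technical.

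SR proteins bind exonic enhancers through RNA recognition motifs and recruit the splicing machinery through a tail of alternating arginines and serines, the RS domain. hnRNPs coat nascent transcripts, often silence splice sites, and several of them also act on mRNA export, stability and translation. Most SR and many hnRNP genes restrain their own expression through alternative exons that lead to nonsense-mediated decay (NMD), the pathway that degrades mRNAs with a premature stop codon.

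The arginine and serine repeats that define the SR genes are visible in their coding sequence. For 4 SR genes the 60-base stretch within an exon was taken that holds the most Arg-Ser or Ser-Arg dipeptides, and it is printed 5′ to 3′ on the coding strand, with the codons of those dipeptides in capitals (GRCm38, transcripts of GENCODE M21). They were chosen to show SR genes that lay at opposite ends of the range of log2 fold changes (Srsf4 at the top, Srsf2 and Srsf9 at the bottom) and the SR gene with the most signal (Srsf5).
Srsf4, chr4:131900590-131900649, plus strand, exon 6 of 6: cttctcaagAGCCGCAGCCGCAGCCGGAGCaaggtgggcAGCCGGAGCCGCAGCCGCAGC
Srsf5, chr12:80949718-80949777, plus strand, exon 8 of 8: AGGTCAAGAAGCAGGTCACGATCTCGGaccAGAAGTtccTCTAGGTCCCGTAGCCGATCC
Srsf2, chr11:116852256-116852315, minus strand, exon 2 of 3: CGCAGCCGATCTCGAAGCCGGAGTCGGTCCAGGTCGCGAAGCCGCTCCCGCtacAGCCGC
Srsf9, chr5:115332594-115332653, plus strand, exon 4 of 4: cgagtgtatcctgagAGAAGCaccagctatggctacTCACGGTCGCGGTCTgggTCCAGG
The stretches held 12 such dipeptides in Srsf4, 15 in Srsf5, 17 in Srsf2 and 6 in Srsf9, whose RS tail is short. Over the whole coding sequence, the SR genes had a median of 16.0 of these dipeptides per 100 residues, against 0.99 in the hnRNP genes and 0.77 over the protein-coding genes tested. The hnRNP genes were instead rich in glycine, with a median of 13.7% of residues against 6.28% over the protein-coding genes tested.

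The values analysed are the RPKM that the authors computed, which are reads divided by gene length and by library size. Whole reads could be recovered from them. The libraries held 642429 to 704006 reads, of which 41.5% and 33.9% lay on protein-coding genes in WT against 65.4% and 59.2% under the KO label. The SR and hnRNP genes together had 1501 and 1563 reads in WT libraries 1 and 2, and 3890 and 3432 in libraries 1 and 2 labelled KO. The library sizes by which the authors divided were 602863 and 471136 for WT, against 906990 and 807705. They are not the read totals: they lay below these totals in WT and above them under the KO label. Eif5a, the gene named by the label, had 34.9 and 65.2 RPKM in WT against 60.3 and 59.4 RPKM, with a log2 fold change of 0.32 ± 0.48 (SE) and a limma adjusted p of 0.839. That value was -0.12 without WT library 1. The study reports its knockout as established, from RT-qPCR and immunostaining of eIF5A in satellite cells, the muscle stem cells. Those are other samples than these libraries. Because a loss of Eif5a signal was not detected under the KO label here, the group is called by its label. No RNA abundance was used here, so a change in signal cannot be assigned to translation, and in a bulk culture fewer cells of a type and less RNA per cell cannot be told apart.

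Most SR and hnRNP genes had a higher mean signal in the libraries labelled KO, and none of them passed a test on its own. Of the 31 genes, 30 averaged 1 RPKM or more across the libraries and were tested. The log2 fold change, on the log2(RPKM + 1) scale throughout, was above 0 for 25 of these 30, where 53.1% of the 9877 tested protein-coding genes were above 0. Both libraries labelled KO lay above both WT libraries for 19 of the 30, and this held for 22.4% of the tested protein-coding genes and for 27.2% of those with a mean of at least 5 RPKM. For 0 of the 30 did both libraries labelled KO lie below both WT libraries, a pattern found in 19.3% of the tested protein-coding genes. The genes do not vary independently of each other within a library, so these counts describe 4 libraries and are not 30 separate observations.

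The median log2 fold change was 0.49 over the 30 genes, 0.38 over the 10 tested SR genes and 0.66 over the 20 hnRNP genes. It was 0.05 over the tested protein-coding genes. The order of SR and hnRNP genes depended on the library left out: without WT library 1 the medians were 0.17 for SR and 0.43 for hnRNP genes, and without WT library 2 they were 0.70 and 0.65. By limma with Benjamini-Hochberg adjustment over all 11363 tested genes, 0 of the 30 passed an adjusted p under 0.05, the smallest being 0.675. Over all tested genes, 0.0088% passed as higher under the KO label and 0.0968% as lower. At an unadjusted p under 0.05, limma also gave 0 of the 30, with 2.86% of all tested genes higher and 4.46% lower at that level. On the recovered reads, limma-voom gave 3 of the 30 at an unadjusted p under 0.05, namely Hnrnpd, Hnrnpa3 and Hnrnph1 (background 3.31% of genes, higher), with adjusted p of at least 0.370.

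**Figure D1:**
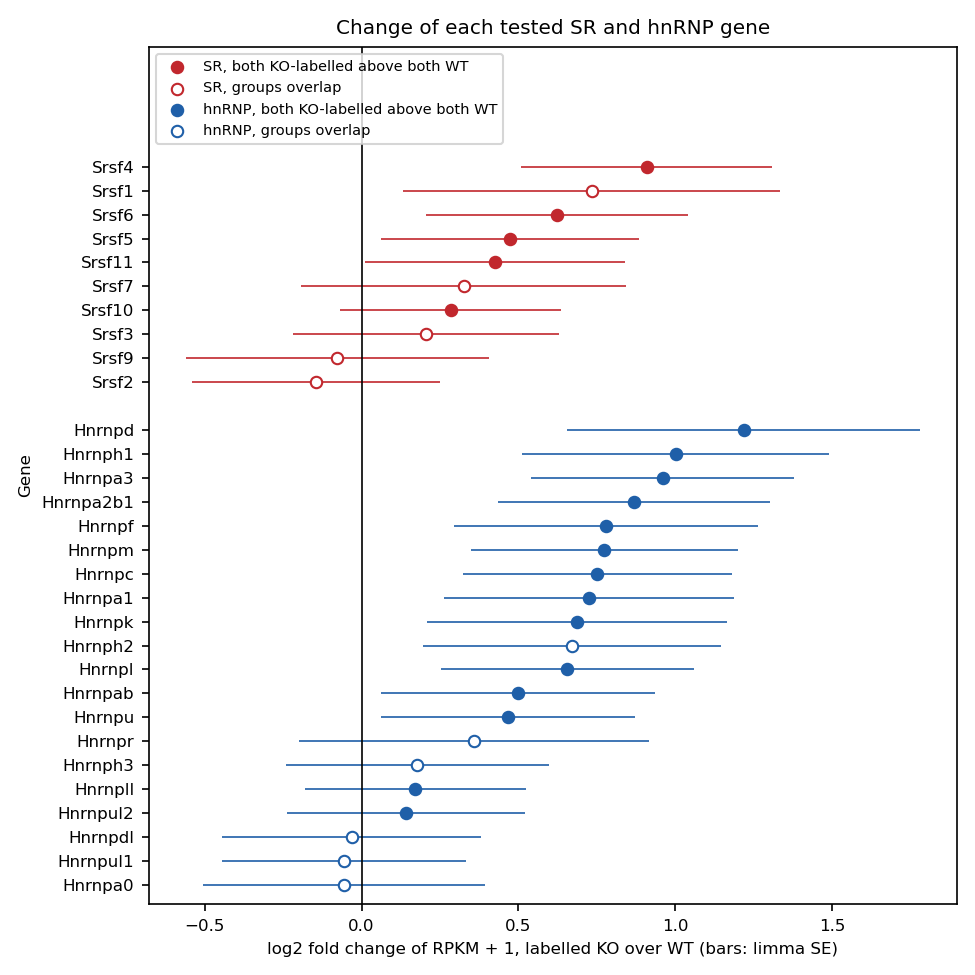
Log2 fold change of RPKM + 1 in the libraries labelled KO over WT for the 30 tested genes, with limma standard errors as bars. Filled points mark the 19 genes whose values in both libraries labelled KO lay above both WT values, and 25 of the 30 points lie to the right of 0.

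Levels between genes can be compared only per length. Per gene length, the order was led by Hnrnpab, Hnrnpa2b1, Hnrnpa1, Hnrnpa0 and Hnrnpu, whose mean RPKM values were 77.8, 53.9, 48.5, 44.6 and 44.4. Hnrnpa0 and Hnrnpu, together with Srsf5 (43.8 RPKM) and Hnrnpl (43.7 RPKM), lay closer to each other in their means than the SD between the libraries of either group in any of these genes. Gene length includes untranslated exons, which ribosomes rarely occupy, and the coding part was a median of 22.4% of the gene length in these genes. Per kilobase of coding sequence, the order was led by Hnrnpa2b1 (335 RPKM on coding length), Hnrnpab (217), Srsf5 (216), Hnrnpu (214) and Hnrnpl (148). Srsf3, which has a coding sequence of 492 bases within a gene length of 7899 bases, moved from rank 28 to rank 17 of 31. Srsf12, a relative of Srsf10, was last on both scales, with 1, 0, 1 and 0 reads, and was not tested.

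**Figure D2:**
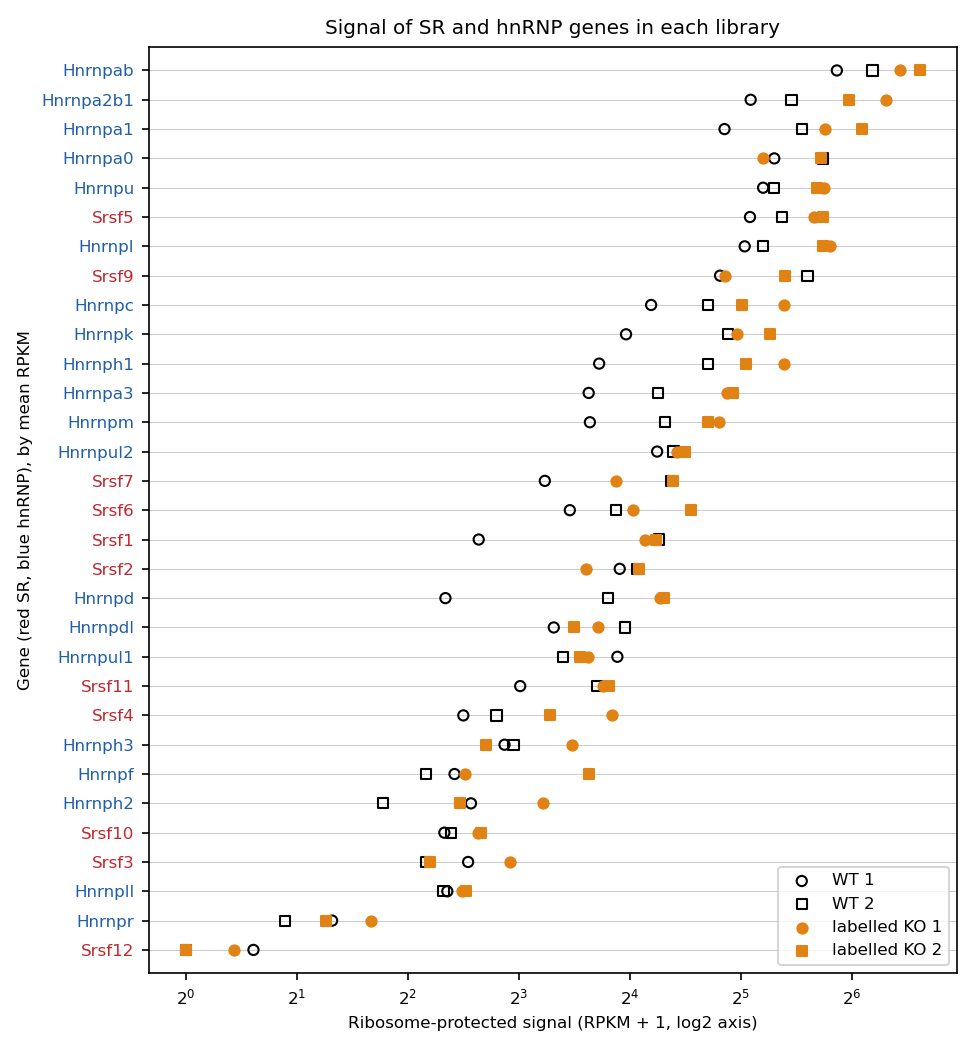
Ribosome-protected signal (RPKM + 1, log2 axis) of the 31 genes in each of the 4 libraries, ordered by mean RPKM, with SR symbols in red and hnRNP symbols in blue. WT library 1 (open circles) is the lowest of the 4 for many genes, among them Hnrnpd and Srsf1.

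Among the core SR genes, 6 of 8 had a log2 fold change above 0. Srsf4, a large SR protein with a long RS tail, had 4.66 and 5.96 RPKM in WT against 13.3 and 8.69 RPKM, on 10, 10, 43 and 25 reads. The groups did not overlap, and the log2 fold change was 0.91 ± 0.40 (SE), at a limma adjusted p of 0.675, the largest among the SR genes. Srsf5 and Srsf6, its relatives in domain structure, also had positive log2 fold changes. Srsf5 had 32.9 and 40.4 RPKM in WT against 49.5 and 52.5 RPKM (log2 fold change 0.47). Srsf6 had 10.0 and 13.7 RPKM in WT against 15.4 and 22.4 RPKM (log2 fold change 0.62). Neither overlapped between the groups, and Srsf6 was at 0.36 without library 2 labelled KO.

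In the other core SR genes the groups overlapped. Srsf1, the founding SR protein, had 5.23 and 18.2 RPKM in WT against 16.6 and 17.8 RPKM. Its log2 fold change of 0.73 rested on WT library 1, and without that library it was -0.08. Srsf7, which also carries a zinc knuckle, had 8.41 and 19.7 RPKM in WT against 13.7 and 19.9 RPKM, and its log2 fold change of 0.33 was -0.24 without WT library 1. Srsf3, a small SR protein that links splicing to mRNA export, had 4.83 and 3.49 RPKM in WT against 6.56 and 3.60 RPKM, on 13 to 47 reads, and its log2 fold change of 0.21 ran from -0.15 to 0.56 when any 1 library was left out.

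Srsf2 and Srsf9 were the SR genes with a log2 fold change below 0. Scaling each library to an equal sum of reads moved the median of all tested genes to 0.47, and Srsf2 then stood at 0.43 and Srsf9 at 0.52, close to that median. Srsf2, known as SC35, had 14.0 and 15.8 RPKM in WT against 11.2 and 15.9 RPKM. The groups overlapped, with a log2 fold change of -0.15 ± 0.40 (SE) and a limma adjusted p of 0.916. Srsf9 had 27.1 and 47.5 RPKM in WT against 28.0 and 41.2 RPKM, and its log2 fold change was -0.08 ± 0.48 (SE), at a limma adjusted p of 0.969. For both, the values within a group differed by more than the group means did. Of the atypical SR genes, Srsf10, a splicing repressor when dephosphorylated, had 4.03 and 4.24 RPKM in WT against 5.20 and 5.30 RPKM. Srsf11 had 7.07 and 12.1 RPKM in WT against 12.5 and 13.0 RPKM. Both were higher without overlap, with log2 fold changes of 0.28 and 0.43, the latter being 0.08 without WT library 1. With the trend on coding GC removed, Srsf10 was at -0.0031.

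Among the hnRNP genes, 17 of 20 had a log2 fold change above 0, and 14 of 20 were higher without overlap, as were 22.4% of the tested protein-coding genes. The A/B class, which binds splicing silencers and shuttles to the cytoplasm, had the largest summed signal of the hnRNP classes. Hnrnpa2b1 had 33.0 and 42.9 RPKM in WT against 78.2 and 61.7 RPKM, on 131, 133, 467 and 328 reads. The WT mean was 37.9 ± 6.98 RPKM and that of the libraries labelled KO 69.9 ± 11.7 RPKM (SD, n = 2 each), without overlap. The log2 fold change was 0.87 ± 0.43 (SE), at a limma adjusted p of 0.676. Hnrnpa3 had 11.4 and 18.1 RPKM in WT against 28.4 and 29.4 RPKM, with a log2 fold change of 0.96 ± 0.42 (SE) and a limma adjusted p of 0.675. Hnrnpa1 had 27.9 and 45.8 RPKM in WT against 53.2 and 67.1 RPKM, with a log2 fold change of 0.72 ± 0.46 (SE) and a limma adjusted p of 0.697. Without WT library 1 it was 0.38.

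Hnrnpa0 was the member of its class with a log2 fold change below 0. With an equal sum of reads it stood at 0.55, near the median of 0.47 over all tested genes. It is a gene of 1 exon whose product binds AU-rich mRNA elements, and it had 38.4 and 52.3 RPKM in WT against 35.8 and 51.8 RPKM. The groups overlapped, with a log2 fold change of -0.06 ± 0.45 (SE) and a limma adjusted p of 0.973. Its coding sequence was also the most GC-rich of the 31, at 71.9%, where those of Hnrnpa1, Hnrnpa2b1 and Hnrnpa3 had 49.9%, 45.7% and 47.8% GC. For each of these 4 genes the 60-base in-frame stretch within an exon whose GC content is nearest to that of the whole coding sequence is shown, 5′ to 3′ on the coding strand, with G and C in capitals (GRCm38).
Hnrnpa0, chr13:58128197-58128256, minus strand, exon 1 of 1: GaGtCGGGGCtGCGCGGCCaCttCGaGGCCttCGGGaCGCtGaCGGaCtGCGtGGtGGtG
Hnrnpa1, chr15:103241125-103241184, plus strand, exon 2 of 11: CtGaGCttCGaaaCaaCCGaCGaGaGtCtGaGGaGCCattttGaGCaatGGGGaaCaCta
Hnrnpa2b1, chr6:51466984-51467043, minus strand, exon 4 of 12: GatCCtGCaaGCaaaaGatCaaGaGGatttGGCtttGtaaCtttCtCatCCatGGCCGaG
Hnrnpa3, chr2:75661466-75661525, plus strand, exon 2 of 10: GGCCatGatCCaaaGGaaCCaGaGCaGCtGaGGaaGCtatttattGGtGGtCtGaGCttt
The stretches have 71.7%, 50.0%, 45.0% and 48.3% GC in that order.

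The D class holds Hnrnpd, also known as AUF1, which promotes the decay of mRNAs with AU-rich elements. It had the largest log2 fold change of the 30 tested genes. This rank depended on the processing: with the trend on coding GC removed, Srsf4 at 1.13 exceeded Hnrnpd at 1.07. Without WT library 1, Srsf4 at 0.76 also exceeded Hnrnpd. WT libraries 1 and 2 had 4.06 and 13.0 RPKM of it, against 18.3 and 18.9 RPKM, on 18, 45, 122 and 112 reads. Both libraries labelled KO lay above both WT libraries, and the WT libraries differed more from each other than those labelled KO did. The log2 fold change was 1.22 ± 0.56 (SE), at a limma adjusted p of 0.676, and leaving out WT library 1 gave 0.48, and leaving out WT library 2 gave 1.95. Hnrnpab, the gene with the most signal per gene length, had 57.2 and 71.7 RPKM in WT against 85.2 and 97.0 RPKM. Its groups did not overlap, with a log2 fold change of 0.50 ± 0.44 (SE) and a limma adjusted p of 0.730. Hnrnpdl, a close relative that lies near Hnrnpd on chromosome 5, had 8.95 and 14.5 RPKM in WT against 12.1 and 10.3 RPKM. Its log2 fold change of -0.03 ran from -0.35 to 0.29 when any 1 library was left out.

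The F/H class binds runs of guanines. Hnrnph1 had 12.2 and 25.1 RPKM in WT against 40.8 and 32.0 RPKM, on 43, 69, 216 and 151 reads. The groups did not overlap, and the log2 fold change was 1.00 ± 0.49 (SE), at a limma adjusted p of 0.676. It was 0.51 without WT library 1. The other members of the class had fewer reads and more spread. Hnrnpf had 4.36 and 3.48 RPKM in WT against 4.70 and 11.4 RPKM, so that its log2 fold change of 0.78 rested on library 2 labelled KO and was 0.22 without it. Hnrnph2 had 4.94 and 2.43 RPKM in WT against 8.33 and 4.53 RPKM. Hnrnph3 had 6.32 and 6.74 RPKM in WT against 10.1 and 5.50 RPKM. In both of these the groups overlapped, and the log2 fold change of Hnrnph3, 0.18, ran from -0.21 to 0.57 when any 1 library was left out.

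In the C, K, L and M classes the groups did not overlap. Hnrnpc, which binds uridine tracts, had 17.3 and 25.05 RPKM in WT against 40.8 and 31.2 RPKM (log2 fold change 0.75). Hnrnpk, which binds cytidine-rich RNA through KH domains, had 14.6 and 28.6 RPKM in WT against 30.2 and 37.3 RPKM (log2 fold change 0.69). Hnrnpm had 11.5 and 18.9 RPKM in WT against 26.9 and 25.1 RPKM (log2 fold change 0.77). Each of these 3 genes had less signal in WT library 1 than in WT library 2, and without WT library 1 the log2 fold changes were 0.50, 0.23 and 0.43. The CA-repeat binder Hnrnpl, by contrast, had close values within each group, 31.8 and 35.7 RPKM in WT against 54.8 and 52.4 RPKM, and its log2 fold change of 0.66 stayed between 0.57 and 0.74 when any 1 library was left out. Its relative Hnrnpll had 4.12 and 4.00 RPKM in WT against 4.63 and 4.77 RPKM. Hnrnpr, the hnRNP gene with the least signal per gene length, had 1.49 and 0.86 RPKM in WT against 2.19 and 1.39 RPKM, with overlap.

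In the U class, Hnrnpu, a nuclear scaffold protein also called SAF-A, had the most reads of all 31 genes. It had 35.8 and 38.4 RPKM in WT against 52.8 and 50.5 RPKM, on 250, 210, 555 and 473 reads. The means were 37.1 ± 1.89 RPKM and 51.6 ± 1.60 RPKM (SD, n = 2 each), without overlap. The log2 fold change was 0.47 ± 0.40 (SE), at a limma adjusted p of 0.729, and it stayed between 0.42 and 0.52 when any 1 library was left out. Hnrnpul2 had 18.0 and 20.01 RPKM in WT against 20.5 and 21.6 RPKM. Hnrnpul1 had 13.8 and 9.57 RPKM in WT against 11.3 and 10.7 RPKM, with a log2 fold change of -0.06 ± 0.39 (SE) and a limma adjusted p of 0.971. With an equal sum of reads Hnrnpul1 was at 0.51, again near the median of 0.47 over all tested genes. Its groups overlapped, and those of Hnrnpu and Hnrnpul2 did not.

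The share of protein-coding reads on these genes does not depend on the library size used by the authors. It was 0.558% and 0.718% in the WT libraries, with 95% Wilson intervals of 0.530% to 0.587% and 0.684% to 0.754%. It was 0.845% and 0.891% in the libraries labelled KO, with intervals of 0.819% to 0.872% and 0.862% to 0.921%. Because PCR copies are not separate molecules, these intervals hold counting error and nothing else. The means were 0.638% ± 0.113 and 0.868% ± 0.0323 (SD, n = 2 each), a ratio of 1.36. There was no overlap between the groups. The exact two-sided permutation test gave p = 0.333, the smallest that 2 against 2 libraries allow. The hnRNP genes carried most of this difference, with 0.453% and 0.565% in WT against 0.700% and 0.721% (exact permutation p = 0.333). The SR genes took 0.105% and 0.153% in WT against 0.145% and 0.170%, and here the groups overlapped (exact permutation p = 0.667). Of all reads, protein-coding or not, the 31 genes took 0.231% and 0.243% in WT against 0.553% and 0.528%.

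**Figure D3:**
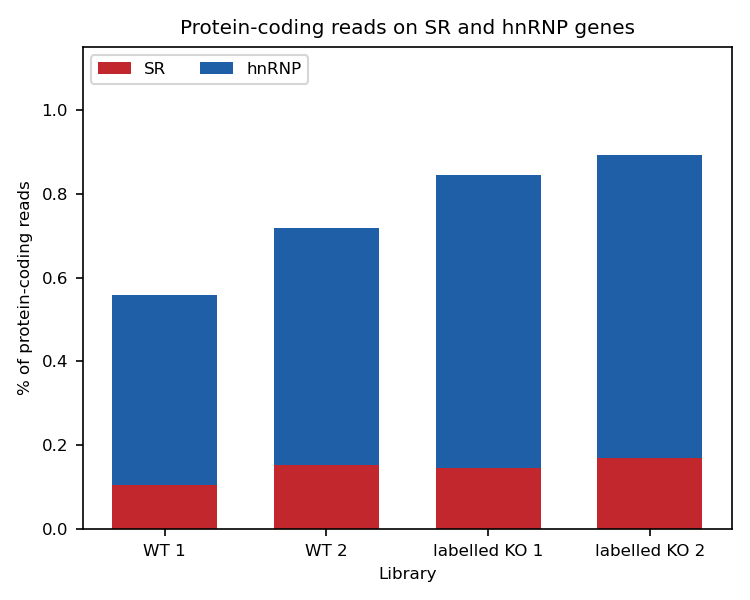
Share of the reads on protein-coding genes that fell on SR genes (red) and hnRNP genes (blue), stacked, in each library. The total is 0.558% and 0.718% in the WT libraries and 0.845% and 0.891% in the libraries labelled KO.

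Within the set, the balance of SR and hnRNP genes overlapped between the groups. SR genes made up 18.9% and 21.3% of the reads on the 31 genes in WT against 17.2% and 19.1%. Hnrnpu alone made up 16.7% and 13.4% of them in WT against 14.3% and 13.8%, again with overlap. The share of Hnrnpa0 was 4.13% and 4.22% in WT against 2.24% and 3.26%, and that of Hnrnpd was 1.20% and 2.88% against 3.14% and 3.26%. Neither of these overlapped between the groups (exact two-sided permutation p = 0.333 for each).

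GC content of the coding sequence moved with the log2 fold change, in these genes and in the rest. Coding GC ranged from 44.7% in Srsf10 to 71.9% in Hnrnpa0, with a median of 50.7% over the 31 genes and 53.2% over the tested protein-coding genes. Of the 7 tested SR and hnRNP genes with 55% GC or more, 3 had a log2 fold change above 0 and the median was -0.06. Of the 23 with less GC, 22 were above 0 and the median was 0.50. The tested protein-coding genes had medians of -0.23 over the 3864 with 55% GC or more and 0.22 over the 6005 with less. Above 0 were 1390 of the 3864 and 3853 of the 6005. Spearman's rho between log2 fold change and coding GC was -0.38 over the 30 genes, which share the same 4 libraries.

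With the trend on coding GC removed from each library, log2 fold changes had a median of 0.56 in the 7 GC-rich genes and 0.45 in the 23 others, and rho was 0.14. Hnrnpa0 and Srsf2, the most GC-rich of the tested genes, moved most: Hnrnpa0 went from -0.06 to 0.56 and Srsf2 from -0.15 to 0.42. Srsf4 and Srsf1, with 58.0% and 58.2% GC, were already high before this step (0.91 and 0.73) and came to 1.13 and 0.96. Hnrnpul1 came to 0.08 and Srsf9 to 0.17. In the other direction, the GC-poor genes Srsf10, Hnrnph3 and Hnrnpll went from 0.28, 0.18 and 0.17 to -0.0031, -0.018 and -0.018. The number of genes higher without overlap was then 16 of 30, where the same correction gave 20.2% of the tested protein-coding genes. The part of GC content in the result was otherwise not tested.

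**Figure D4:**
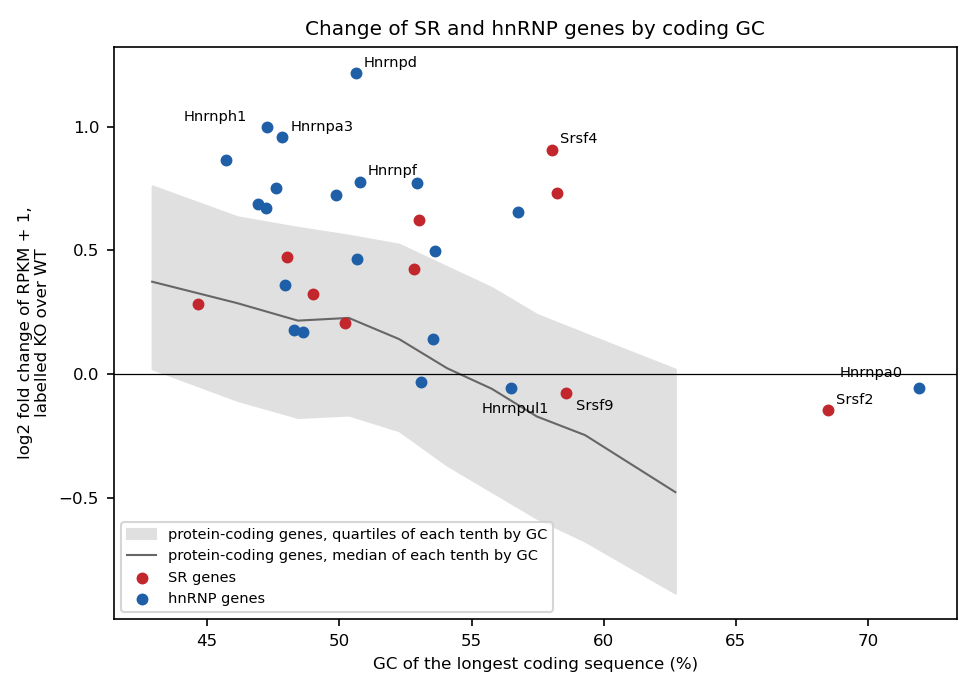
Log2 fold change of RPKM + 1 (libraries labelled KO over WT) against the GC content of the longest coding sequence for the 30 tested genes, over the median (line) and quartiles (band) of the tested protein-coding genes in bins of equal size by GC. Hnrnpa0 and Srsf2, at 71.9% and 68.5% GC, lie near 0 beyond the right end of the line, which is below 0 there.

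Some of these genes have many processed pseudogenes, and how reads that match several places were counted is not given in the sources used here. Each coding sequence was therefore cut into all its windows of 30 bases, about the length of a ribosome footprint, which were looked for on both strands of the annotated transcripts of other genes. The share of windows found elsewhere was 97.8% in Hnrnpf, 97.7% in Hnrnpa3, 94.2% in Srsf3, 86.1% in Hnrnpk and 85.6% in Hnrnpa1. It was 0% in Hnrnpa0, Hnrnpll, Hnrnpm, Hnrnpu, Srsf6, Srsf9, Srsf11 and Srsf12. The signal of genes such as Hnrnpa3 and Hnrnpa1 is therefore uncertain. Gm11847 and Gm10052, the pseudogenes sharing the most windows with Hnrnpa3 and Hnrnpa1, had 0 reads in each library. How reads matching both places were assigned is unknown, so this does not settle where such reads arose. For Srsf4 (58.6%) and Srsf2 (41.0%) the shared windows lay in overlapping genes on the opposite strand, the noncoding Gm12992 with 1, 0, 0 and 0 reads and the coding Mfsd11 with 20, 5, 20 and 20 reads, and without stranded counting such reads cannot be told apart.

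The 10 genes with 50% or more of their windows shared all had a log2 fold change above 0, with a median of 0.71. Of the 20 tested genes with less sharing, 15 were above 0 and 11 were higher without overlap (22.4% over protein-coding genes), with a median of 0.39. These less shared genes and Srsf12 took 0.431% and 0.546% of the protein-coding reads in WT against 0.633% and 0.659%, again without overlap (exact two-sided permutation p = 0.333).

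**Figure D5:**
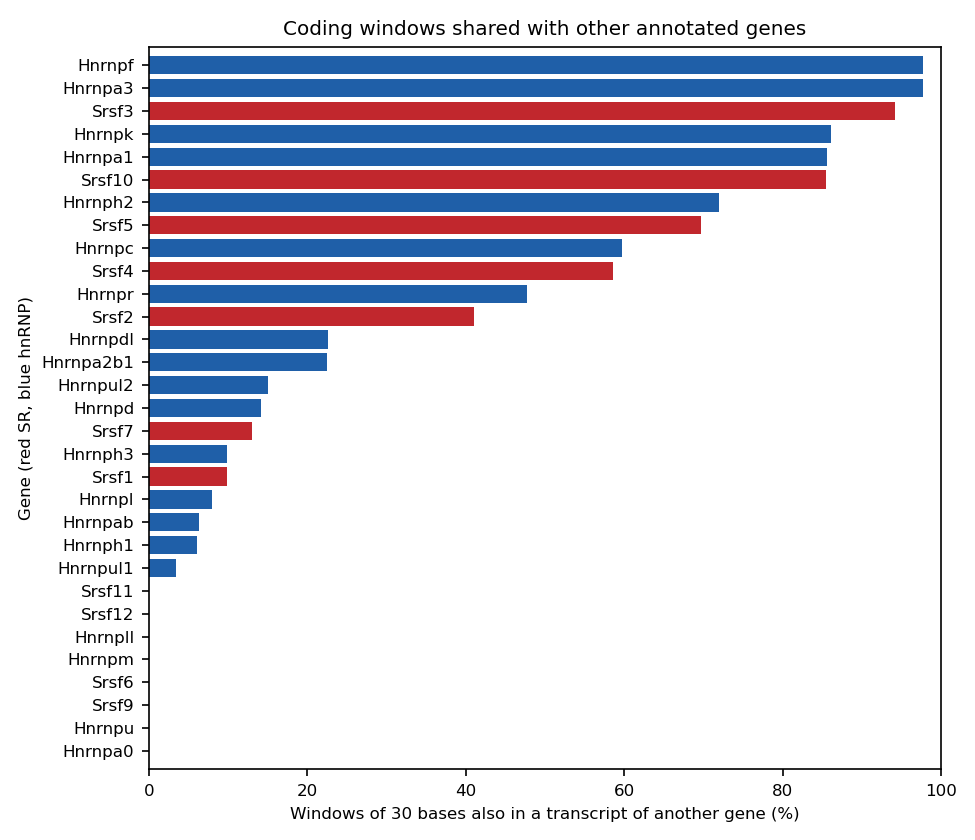
Percent of the 30-base windows of each coding sequence that also occur in an annotated transcript of another gene, on either strand, for the 31 genes. The bars run from 0% in 8 genes, among them Hnrnpu and Hnrnpa0, to 97.8% in Hnrnpf.

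Transcripts annotated as NMD targets were frequent in the set. At least 1 such transcript was annotated for 9 of 11 SR genes (81.8%) and for 10 of 20 hnRNP genes (50.0%), against 28.6% of the tested protein-coding genes. Genes with such a transcript (16 of 19 above 0) had log2 fold changes with a median of 0.47, and tested genes without one (9 of 11 above 0) had a median of 0.67. eIF5A is known to help ribosomes through runs of prolines. A run of at least 3 prolines was present in 11 of the 31 proteins (35.5%), against 25.7% of the tested protein-coding genes, and was longest in Hnrnpul1 (9), Hnrnpl (8) and Hnrnpk (6). Log2 fold changes had a median of 0.36 in the 11 genes with such a run, 8 of them above 0, and of 0.50 in the 19 other tested genes, 17 of them above 0.

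The wider splicing machinery was described from lists of genes of known role, and 0 genes of these lists passed an adjusted p under 0.05 by limma. Of 50 core spliceosome genes, 41 had a log2 fold change above 0, 26 were higher and 1 lower without overlap, and the median was 0.54. Over the tested protein-coding genes, 22.4% were higher and 19.3% lower without overlap. In this list 2 genes were higher at an unadjusted p under 0.05, as were 2.86% of all tested genes. The values ran from Ddx23, a helicase of the U5 particle (15.4 and 15.0 RPKM in WT against 11.3 and 11.7 RPKM, log2 fold change -0.37, and 0.20 with an equal sum of reads, below the median of 0.47 over all tested genes), to Phf5a, a subunit of SF3b (2.30 and 8.82 RPKM in WT against 16.8 and 13.7 RPKM, log2 fold change 1.51, on 3, 9, 33 and 24 reads). Phf5a was at 0.72 without WT library 1 and at 2.30 without WT library 2.

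Other RNA-binding proteins that resemble hnRNPs had a lower median. Of 34 tested, 21 were above 0, 12 were higher and 5 lower without overlap (22.4% and 19.3% over protein-coding genes), and the median was 0.18. The lowest value was that of the KH-domain protein Khsrp (29.2 and 27.0 RPKM in WT against 15.8 and 12.9 RPKM, log2 fold change -0.93). Of 22 other genes with RS domains or partners of SR proteins, 16 were above 0, 7 were higher and 3 lower without overlap, against the same shares, and the median was 0.25. Their ends were Scaf1 (16.2 and 12.9 RPKM in WT against 6.69 and 8.77 RPKM, log2 fold change -0.84) and the junction-complex protein Pnn (7.77 and 7.37 RPKM in WT against 14.7 and 10.96 RPKM, log2 fold change 0.68). With the trend on coding GC removed, Khsrp was at -0.55 and Scaf1 at -0.40.

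The kinases that phosphorylate RS domains, with the importin Tnpo3 that carries SR proteins into the nucleus, went both ways. Of the 9 tested, 5 were above 0 and 1 was higher without overlap (22.4% over protein-coding genes), with a median of 0.02. Clk4 had 3.72 and 2.93 RPKM in WT against 3.04 and 1.07 RPKM, and Clk1 had 4.28 and 6.53 RPKM in WT against 8.95 and 9.44 RPKM. Of the 14 genes of the NMD pathway, 8 were above 0 and 2 were higher without overlap (again 22.4% over protein-coding genes), with a median of 0.07. Upf3b had 0.83 and 0 RPKM in WT against 3.31 and 3.10 RPKM, on 2, 0, 12 and 10 reads, with a limma adjusted p of 0.672.

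Summed markers of myoblasts, endothelial cells and proliferation did not overlap between the groups, those of fibroblasts and immune cells did, and 0 of the markers passed an adjusted p under 0.05 by limma. The summed signal of 10 myoblast markers was 218 to 349 RPKM in WT against 123 to 139 RPKM, and 9 of the 10 had a log2 fold change below 0. Each of these markers had reads in at least 1 library. The sum of 21 cell cycle genes was 88.5 to 185 RPKM in WT and 219 to 247 RPKM, and 19 of the 21 were above 0. The sum of 8 endothelial markers was 192 to 275 RPKM in WT and 299 to 362 RPKM, with 7 of 7 tested genes above 0. The sum of 12 fibroblast markers was 465 to 652 RPKM in WT and 532 to 1087 RPKM, with 9 of 11 tested genes above 0 and Tcf21 listed at 0, and that of 8 immune markers was 48.2 to 76.5 RPKM and 51.4 to 66.8 RPKM, with 2 of 5 tested genes above 0 and Itgam listed at 0. WT library 1 had the lowest sum of cell cycle genes and also the lowest share of reads on SR and hnRNP genes. The part of cell composition and of proliferation in the values of the SR and hnRNP genes was not tested.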

How the data were processed

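Ribosome-protected fragments of 4 libraries (2 WT, 2 labelled eIF5A-KO) were analysed. The labels call the assay Polysome-Seq, but their protocol describes RNase I digestion, column enrichment of ribosomes and gel isolation. By the submitters' notes, the authors mapped reads to mm10 with TopHat2 and counted with HTSeq. The deposited values are RPKM. Counting options, strand included, are not given in the sources used here. Multiplied by gene length, 100% of the values above 0 were whole multiples of a single read (tolerance 0.01), so reads were recovered. Groups were taken from the titles.

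The test was limma 3.58.1 in R 4.3.3 (lmFit, eBayes with trend=TRUE) applied to log2(RPKM + 1), leaving out genes that averaged under 1 RPKM, with Benjamini-Hochberg adjustment over the 11363 genes tested. Shares of reads were compared by exact two-sided permutation over the libraries. Coding sequences were the longest complete ones of GENCODE M21 (GRCm38). The same coordinates were found there for 31 of the 31 genes. Alternatives were other pseudocounts, filters, scalings, a GC correction (loess, span 0.5), a replicate block, limma-voom and leaving out each library. The script was tested on simulated data. The values of each SR and hnRNP gene are given. Full statistics are given for the 4 at each end of the range of log2 fold changes and the 5 with the most RPKM, and of each pathway list the lowest and highest gene with at least 20 reads are named, except some that are not reported here. Other genes named for their values were chosen after these were seen. The genes, the lists and the markers were chosen with earlier results of these data known. Residues were counted on translations of these coding sequences, without separate protein sequences. RNA abundance was not used.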

Additional observations from a re-analysis of the deposited data

How the results depend on the processing

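Under all 15 alternatives run, the median log2 fold change of the SR and hnRNP genes exceeded that of all tested genes. The difference was 0.36 to 0.65. The share of all genes above 0 is given only for the analysis reported. Under the alternatives that kept all 4 libraries, 0 SR or hnRNP genes passed an adjusted p under 0.05 by limma or limma-voom. The number of such genes above 0 was 24 to 28 when each library was left out in turn, and their median log2 fold change was 0.36 to 0.65. Scaled to the same sum of reads over all genes, the median of all tested genes moved to 0.47 and that of the SR and hnRNP genes to 1.09 (0.95 for SR and 1.21 for hnRNP genes), with 29 of 30 higher without overlap, where this scaling gave 46.5% of the tested protein-coding genes. With library totals equalised on protein-coding genes alone, 14 of 30 were higher without overlap, against 18.3% of the tested protein-coding genes. The median of the SR and hnRNP genes was then 0.37, and that of all tested genes -0.089. With the distributions of the libraries made equal (quantile normalization), 20 of 30 were higher without overlap, against 25.2%. Without the 10 genes that share 50% or more of their windows, the median of the SR and hnRNP genes was 0.39.

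The 12 genes called over the whole table became 0 with a pseudocount of 0.1, no filter, a minimum of 5 RPKM, at least 20 reads, the same sum over all genes, protein-coding genes only, the GC trend removed or any library left out, and 38 with limma-voom. The number of SR and hnRNP genes at an unadjusted p under 0.05, 0 in the analysis reported, was 1 with no filter (403 of all 18961 genes were higher at that level), 1 with at least 20 reads (362 of 8962), 2 with protein-coding genes only (418 of 9877), 3 with limma-voom (304 of 9179), 1 with the GC trend removed (360 of 9869), 16 with the same sum over all genes (1684 of 11363) and 0 to 7 with a library left out, 7 being the value without WT library 2 (809 of 11363).

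A replicate block gave 0 called genes over the whole table. Same-numbered libraries share only a number, with a correlation of their deviations of 0.06.

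Some values changed sign, not all of them near 0. With the same sum over all genes, which shifts genes in common as given above, Hnrnpa0 was at 0.55, Srsf9 at 0.52, Srsf2 at 0.43, Hnrnpul1 at 0.51 and Ddx23 at 0.20, Khsrp and Scaf1 stayed below 0 at -0.34 and -0.28, and Hnrnpdl was above 0, as were all 30 tested SR and hnRNP genes. With the GC trend removed, Hnrnpa0 was at 0.56, Srsf9 at 0.17, Srsf2 at 0.42 and Hnrnpul1 at 0.080, and Srsf10, Hnrnph3 and Hnrnpll turned from above 0 to -0.0031, -0.018 and -0.018. With a library left out, Hnrnpa0 ranged from -0.32 to 0.20, Srsf9 from -0.47 to 0.32, Srsf2 from -0.38 to 0.090, Hnrnpdl from -0.35 to 0.29, Srsf3 from -0.15 to 0.56, Hnrnph3 from -0.21 to 0.57, Srsf7 from -0.24 to 0.89, Srsf1 from -0.080 to 1.55, Hnrnpul1 from -0.30 to 0.19 and Eif5a from -0.12 to 0.76. The cause was not tested. At 5 to 43 reads per library, as in Srsf4 and Hnrnpf, counting error limits what can be seen.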
